A study of Mus musculus with 288 samples.

Results

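The receptors for GABA and glutamate were followed here through the mRNA of their subunits. Genes were taken by symbol from the Gabr subunits of the GABA-A receptor, from the ionotropic Gria, Grik, Grid and Grin subunits, and from the metabotropic Grm receptors. The rule found 45 genes among the 35904 gene symbols of the expression tables: 19 GABA-A subunits, 4 AMPA, 5 kainate, 2 delta and 7 NMDA subunits, and 8 metabotropic receptors. Bulk poly(A) RNA of male C57BL/6J mice aged 8 weeks was sequenced in 6 tissues, cerebellum, lung, heart, kidney, liver and muscle. Normoxia mice breathed room air. IH mice were exposed for 7 days, in their resting phase, to intermittent hypoxia, in which oxygen swung between 21 and 8%, a model of obstructive sleep apnea. Both groups were then kept in constant darkness and normal air, and organs were collected over 24 hours on the second day of it, at 8 time points 3 hours apart, from 3 mice per treatment and time point, which gives 24 libraries per tissue and treatment and 288 in all. Each library comes from 1 mouse. The paper describes several organs being collected from these mice, so different tissues may share a mouse, which the labels do not state. The comparisons between tissues do not account for this. Values are TPM, transcript levels per length scaled to a common total. They keep no record of the read depth of a library, so precision is given by the spread over mice.

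GABA-A receptors are chloride channels built from several subunits, and the alpha, beta, gamma, delta, epsilon, pi, theta and rho genes set where the channel sits and how it responds to GABA. AMPA, kainate and NMDA receptors are the glutamate-gated cation channels of excitatory synapses, the delta subunits are relatives that organise synapses, and the Grm genes encode G protein-coupled receptors. In the cerebellum, granule cells carry receptors with the products of Gabra6 and Gabrd, which give a steady inhibition.

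Several libraries stood apart and bear on what follows. The cerebellar IH library of replicate 3 at 1:30 had a mean correlation of 0.766 with the other cerebellar libraries, against a median of 0.947 among IH libraries. In it a predicted gene, Gm19220, took 45.2% of all TPM, against a median of 3.49% (gene chosen after its values were seen). Its 5 heart markers (Myh6, Nppa, Actc1, Tnnt2, Myl7) summed to 6171 TPM, led by Tnnt2 at 1849 TPM, while its Purkinje cell markers summed to 458 TPM and Gabra6 stood at 19.0 TPM. Heart transcripts were present in all cerebellar libraries: the same sum ran from 39.3 TPM through a median of 655 to 2702 TPM in normoxia and from 21.3 through 375 to 6171 TPM after IH. Altogether 5 cerebellar libraries had a mean correlation under 0.9, and the other 4 were normoxia replicates 1 and 2 at 7:30 and IH replicate 1 at 1:30 and at 10:30. The cerebellar IH library of replicate 1 at 1:30 held the highest granule cell marker sum (1943 TPM) and the lowest heart marker sum (21.3 TPM). The liver IH library of replicate 2 at 13:30 went against its label, with a liver marker sum of 952.7 TPM, against a median of 32200 TPM after IH, and a heart marker sum of 5493 TPM. The heart IH library of replicate 2 at 10:30 held cerebellar transcripts, with Gabra6 at 7.26 TPM and the Purkinje cell marker Pcp2 at 62.5 TPM, 2.22 and 3.72% of their cerebellar means. In the other 47 heart libraries Gabra6 reached at most 0.0236 TPM. The lung IH library of replicate 2 at 1:30 had a mean correlation of 0.883 with the other lung libraries and the lowest lung marker sum, 34580 TPM. It held the highest lung values of Gabre (12.2 TPM), Grik5 (25.9 TPM), Gabra2 (1.77 TPM), Gria2 (1.32 TPM) and Grm5 (2.625 TPM), while its granule cell marker sum was 8.51 TPM, within the range of the other lung libraries. The kidney normoxia libraries of replicate 1 at 1:30 and 4:30 were nearly alike, with a median absolute log2 difference of 0.04 between them against 0.25 for the typical pair of kidney libraries. For some of the results that rest on these libraries, values without them are given too.

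Most subunit genes had their highest level in the cerebellum. In normoxia, 40 of the 45 had their highest mean there, and 36 reached a mean of 1 TPM, against 7 in lung, 4 in kidney, 3 in heart, 2 in muscle and 1 in liver. Gabra6 was the most abundant at 356 ± 141 TPM (SD, n = 24), and Gabrd, with which it shares granule cell receptors, stood at 107 ± 34.6 TPM. The highest level of Gabra6 in the normoxia means of the other tissues was 0.0473 TPM, in muscle. In 4 of the other families the leading genes were Grm4 (77.4 ± 25.2 TPM), a presynaptic receptor of granule cell axons, Gria1 (66.4 ± 31.1 TPM), Grin1 (47.5 ± 23.6 TPM), the obligatory NMDA subunit, and Grik5 (22.9 ± 7.54 TPM). The 9 genes under 1 TPM on average in the cerebellum were Gabre, Gabrg3, Gabrp, Gabrq, Gabrr1, Gabrr2, Gabrr3, Grin3b and Grm6.

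Of the 39 subunit genes with a mean of 1 TPM or more in at least 1 tissue, 36 were higher in the cerebellum than in the mean of the other 5 tissues by limma at an adjusted p of 0.05 and 1.5-fold, beside 44.2% of the 18080 genes tested. Of these 36, 29 reached 1 TPM in the cerebellum only, so they entered the test through the tissue where they are high, and their direction follows largely from that filter. The other 7 reached 1 TPM in another tissue too. Gabrp alone was lower, by a log2 difference of -1.19, against 22.2% of genes. Gabrp reached 1 TPM in lung only, so it too entered the test through the tissue where it is high. Its cerebellar mean (0.13 TPM) was under those of lung and heart (0.255) but above kidney (0.0715), liver (0.0846) and muscle (0.0275). Gabrr2 (0.58) and Gabre (-0.26) stayed under 1.5-fold. The direction of all genes depended on the scaling of libraries, with 7994 genes higher and 4013 lower for TPM as deposited and 5563 and 5741 after median-of-ratios scaling, while 37 subunit genes passed under both. The log2 difference was largest for Gabra6 (9.32), and for Gabrd it was 7.09. It was smallest among the 36 for Grin2d (1.01) and Gabra3 (1.75), both of which are also present in lung.

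A few genes had their place outside the cerebellum. Gabrp, the pi subunit, known from epithelia, had its highest mean in lung at 44.1 ± 8.59 TPM and did not pass 0.255 TPM in the normoxia mean of any other tissue. Gabre (1.35 ± 0.283 TPM) and Grin2d (2.32 ± 0.689 TPM) were also highest in lung, and the rho subunits Gabrr1 (0.252 TPM) and Gabrr2 (1.10 TPM) in muscle. Grik5, a kainate subunit that forms channels only together with other kainate subunits, was the sole member at 1 TPM or more in all 6 tissues, with 6.42 TPM in lung, 3.65 in kidney, 2.50 in heart, 2.31 in muscle and 2.01 in liver. Among the 3 most abundant members of each other tissue were Gria3 (4.41 TPM) beside Gabrp and Grik5 in lung, Gria3 (2.32 TPM) in kidney, Gabra3 (1.30 TPM) in heart, Gabrr2 and Gabra3 (0.953 TPM) in muscle, and Gabra3 (0.581 TPM) and Grm8 (0.304 TPM) in liver.

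**Figure D1:**
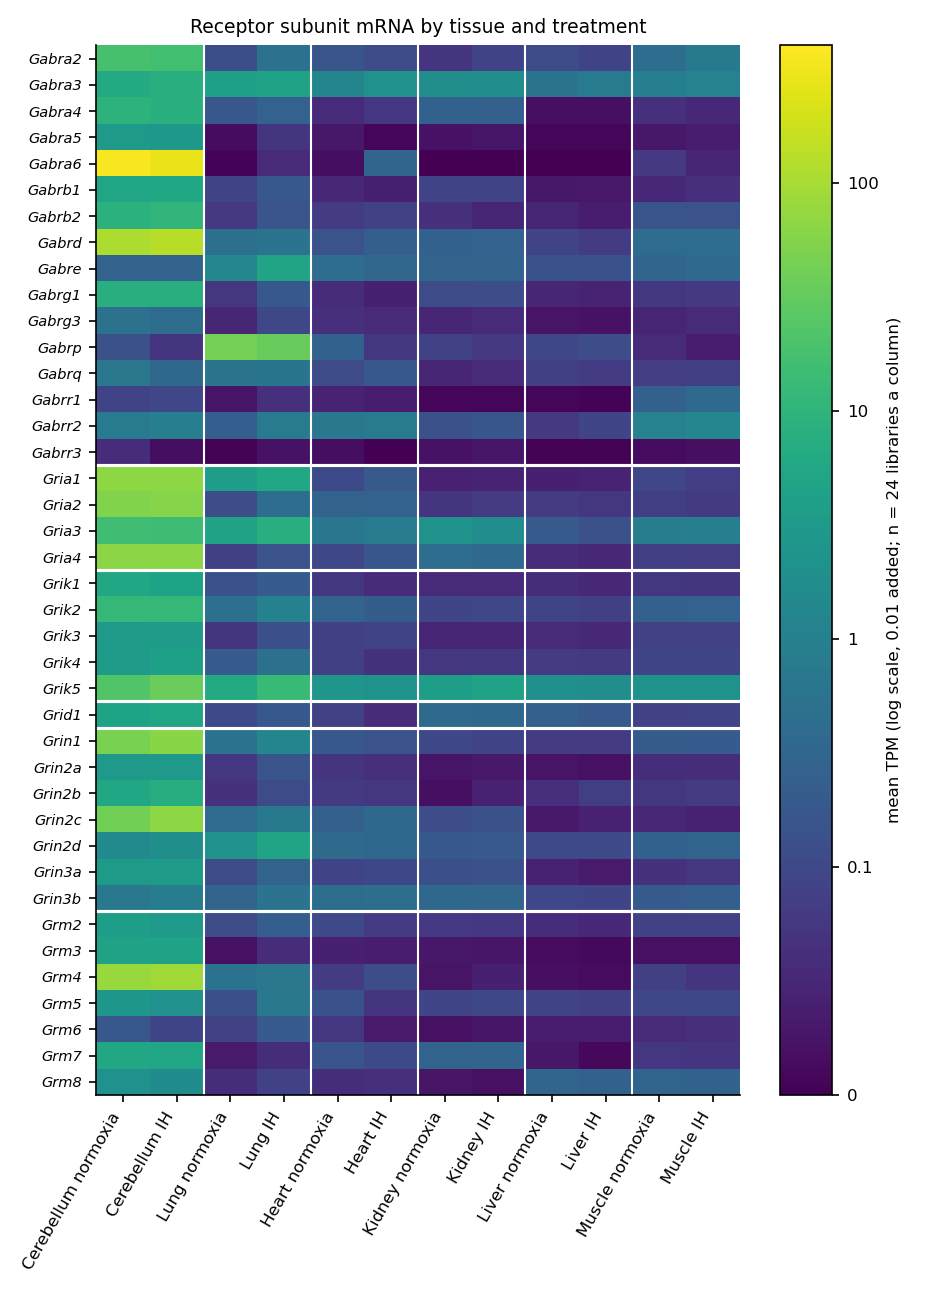
Mean TPM of 40 subunit genes (rows, grouped by family) in 6 tissues under normoxia and IH (columns, 24 libraries each), on a log colour scale with 0.01 TPM added. The cerebellar columns are bright for most rows, while Gabrp is bright in lung and Grik5 is visible in every column.

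Many GABA-A genes lie side by side in the genome (GRCm38). The cluster on chromosome 5 holds Gabrg1, Gabra2, Gabra4 and Gabrb1 within 1398 kb, with normoxia cerebellar means of 7.60, 18.0, 9.38 and 5.27 TPM. On the X chromosome, Gabre, Gabra3 and Gabrq span 586.6 kb. Gabre reached 1 TPM only in lung, and Gabra3 did so in cerebellum, lung, kidney and heart. The ends of Gabra4 and Gabrb1 overlap on opposite strands. The libraries were made with a strand-specific kit, but how strand entered the counting is not given in the sources used here, so these 2 values are less certain.

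After IH, 4 of the 36 subunit genes tested in the cerebellum changed at an adjusted p of 0.05 (limma over 14892 genes), 2 higher and 2 lower. Over all genes 15.0% were called, with 9.76% higher and 5.24% lower, and the share of the members lies near this. Grik5 and the NMDA subunit Grin2c, which in the cerebellum belongs to granule cells, rose, while the kainate subunit Grik1 and the presynaptic glutamate receptor Grm8 fell. With a 1.5-fold change as well, 2 members passed, Grik5 and Grin2c, against 2.64% of all genes. The median log2 change was -0.03 over the 36 members and -0.01 over all genes. Changes are on the scale of log2(TPM + 0.5), which understates those of low genes.

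Grik5 ran from 13.6 TPM through a median of 21.3 to 43.2 TPM in normoxia and from 8.50 through 35.3 to 63.7 TPM after IH. The groups overlapped, with 23 of 24 IH libraries above the normoxia median and 5 above the highest normoxia library, and the lowest of all was the IH library of replicate 3 at 1:30. Its log2 change was 0.66 (SE 0.12, adjusted p = 1.58e-04), and its mean was higher after IH at 8 of 8 time points. Grin2c ran from 15.3 through 39.7 to 93.7 TPM in normoxia and from 6.12 through 56.5 to 196.7 TPM after IH. Here 21 of 24 IH libraries lay above the normoxia median and 3 above its highest library, which leaves wide overlap. The log2 change of Grin2c was 0.61 (SE 0.18, adjusted p = 0.0147), again higher at 8 of 8 time points.

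Grik1 ran from 3.24 through 5.74 to 8.38 TPM in normoxia and from 1.52 through 4.40 to 9.47 TPM after IH. Only 4 IH libraries passed the normoxia median. Its log2 change was -0.27 (SE 0.08, adjusted p = 0.0123), with the IH mean higher at 2 of 8 time points. Grm8 ran from 1.31 through 2.12 to 3.12 TPM in normoxia and from 0.653 through 1.63 to 3.33 TPM after IH. It overlapped as widely, with 7 IH libraries above the normoxia median. Its log2 change was -0.26 (SE 0.09, adjusted p = 0.0406). Grik5, Grin2c and Grik1 were called in all 48 fits that left out 1 library each. Leaving out a whole replicate did more. Grin2c lost its call without replicate 1 (0.33, adjusted p = 0.499) or 2 (0.39, 0.591), as did Grik1 (-0.17, 0.344 and -0.35, 0.106) and Grm8 (-0.11, 0.63 and -0.24, 0.518). Of the alternatives run, 5 of 20 ended the call of Grin2c, 6 of 20 that of Grik1 and 10 of 19 that of Grm8. Of the fits without 1 library, Grm8 was called in 26, and its adjusted p reached 0.0667 without the normoxia library of replicate 1 at 1:30.

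Without the IH library of replicate 3 at 1:30, 5 of 36 members were called, against 24.4% of 14861 genes. The log2 changes were then 0.70 for Grik5 (adjusted p = 1.99e-05), 0.70 for Grin2c (8.27e-04), -0.25 for Grik1 (0.0134) and -0.27 for Grm8 (0.0284). The added member was Grin1, which all functional NMDA receptors contain. With all libraries Grin1 stood at 47.5 ± 23.6 TPM in normoxia and 61.3 ± 33.3 TPM after IH (log2 change 0.33, adjusted p = 0.123), and without that library at 0.41 (adjusted p = 0.0145). Without all 5 libraries with a mean correlation under 0.9, 4 members were called, against 22.7% of genes. Grm8 was then no longer called (adjusted p = 0.062), and Grin1 was (0.0386). On TPM as deposited, without scaling of libraries, only Grik5 was called (0.65, adjusted p = 0.00167), with adjusted p of 0.09 for Grin2c, 0.178 for Grik1 and 0.147 for Grm8.

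**Figure D2:**
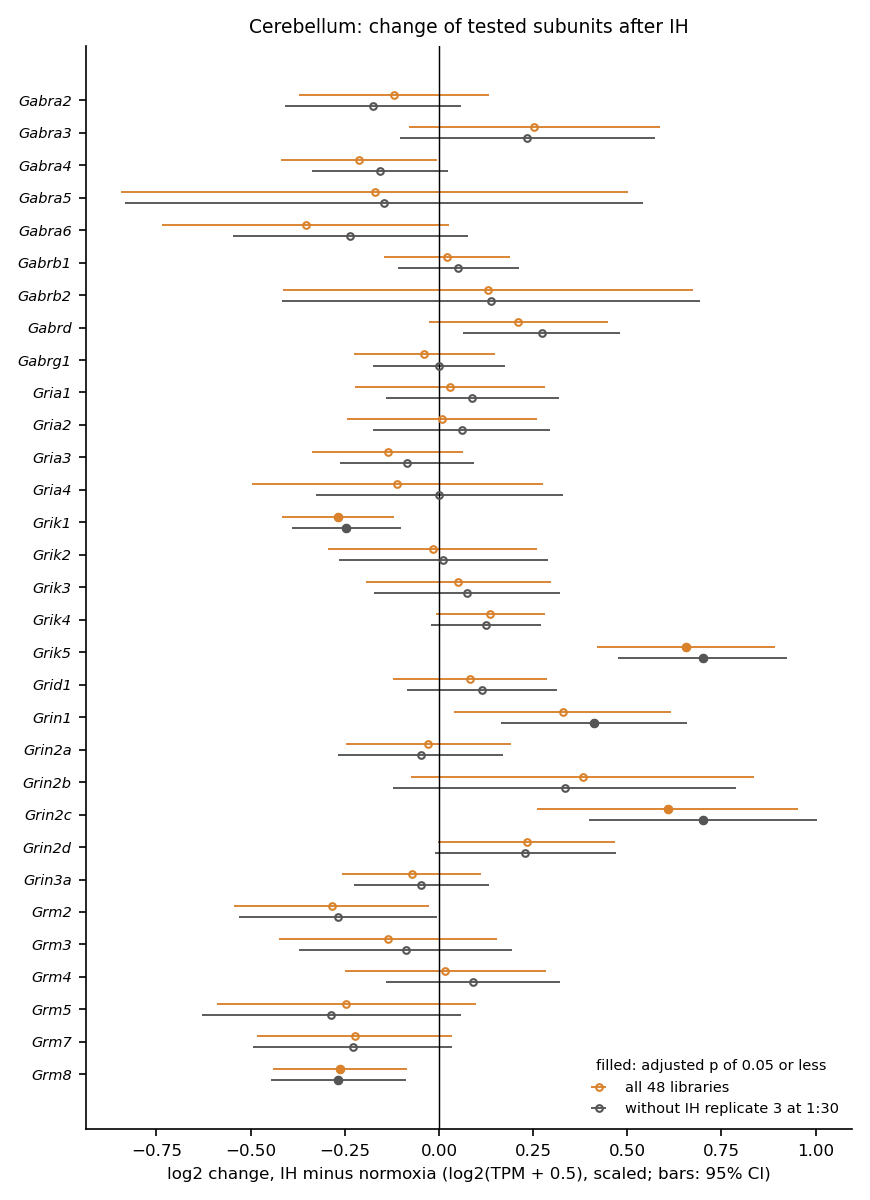
Log2 change after IH (x axis, IH minus normoxia, points with 95% confidence intervals) of 31 subunit genes tested in the cerebellum, with all 48 libraries and without the IH library of replicate 3 at 1:30. Filled points mark an adjusted p of 0.05 or less: 4 genes with all libraries and 5 without that library.

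With all libraries and treatment alone in the fit, the most abundant GABA-A, AMPA and metabotropic members did not pass the test. Gabra6 was 356 ± 141 TPM in normoxia and 298 ± 128 TPM after IH (log2 change -0.35, adjusted p = 0.212). It was called under 2 of 20 alternatives, with the heart marker sum (-0.545, adjusted p = 0.00655) and with 5 brain marker sums (-0.33, adjusted p = 0.00674) as terms, both chosen after seeing the data. Without the IH library of replicate 3 at 1:30 Gabra6 gave -0.24 (adjusted p = 0.284). With GC and length correction as well it gave -0.04 (adjusted p = 0.9). Gria1 (0.03, adjusted p = 0.905) and Grm4 (0.02, adjusted p = 0.956) had small changes, and their sign turned under several settings. Of the other members tested none reached 1.5-fold, and the largest rise among them was 0.38 (Grin2b, named after its values were seen). As shares of a family's summed TPM, given as a description, Grik5 took 49.3 ± 9.52% of the kainate transcripts in normoxia and 61.0 ± 9.76% after IH. Grin2c took 38.9 ± 5.51 and 44.1 ± 9.66% of the NMDA transcripts, and Gabra6 took 42.5 ± 5.02 and 38.2 ± 6.96% of the GABA-A transcripts. The share of Gabrd went the other way, from 13.54 ± 2.999 to 17.85 ± 4.954%. Its level was 107 ± 34.6 TPM in normoxia and 126 ± 42.5 TPM after IH (log2 change 0.21, adjusted p = 0.237, and 0.27, adjusted p = 0.0544, without the IH library of replicate 3 at 1:30, given after its values were seen). Among AMPA subunits, Gria1, Gria4 and Gria2 held shares of 32.8 ± 2.87, 30.4 ± 4.73 and 28.7 ± 6.66% in normoxia. Whether these shares differ was not tested.

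The cerebellar change of some members differed by replicate number. By a limma test of treatment by replicate number, 3 of 36 members passed, against 3.67% of genes: Grin2c (adjusted p = 0.0111), Grik5 (0.0137) and Grin1 (0.0254). On TPM as deposited only Grik5 passed (0.0304), with 0.0751 for Grin2c and 0.189 for Grin1, and 106 genes in all against 547. In Grik5, the 8 normoxia libraries of replicate 1 ran from 13.6 through 20.6 to 23.2 TPM and the IH libraries from 26.4 through 36.5 to 63.7 TPM, without overlap. In replicate 2 they ran from 14.3 through 16.0 to 25.9 TPM and from 28.7 through 37.4 to 50.7 TPM, again without overlap. In replicate 3 normoxia was higher, from 23.4 through 31.8 to 43.2 TPM, and IH ran from 8.50 through 34.3 to 40.4 TPM, so the groups overlapped. The log2 changes of Grik5 were 0.96, 1.01 and 0.01 in replicates 1, 2 and 3 (limma adjusted p = 0.00492, 1.91e-04 and 0.997). For Grin2c they were 1.16, 1.06 and -0.40 (adjusted p = 0.00853, 0.00311 and 0.975), and for Grin1 0.64, 0.80 and -0.44. Grik1 gave -0.45, -0.10 and -0.25 (adjusted p = 0.0808, 0.639 and 0.975). Grm8 gave -0.57, -0.31 and 0.08 (adjusted p = 0.0815, 0.128 and 0.975), and its replicate 3 means were 1.73 ± 0.349 TPM in normoxia and 1.78 ± 0.648 TPM after IH, so its fall was not seen there.

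Within replicate 1, 2 members were called, against 8.32% of genes, and within replicate 2, 5 members. Of these 4 were higher (Grik5, Grin2c, Grin1 and Grik4), against 12% of genes, and Gabra4 was lower, against 4.48% (Grik4 and Gabra4 named after their values were seen). Within replicate 3 the number was 0 of 36, with 0% of genes called by limma, and at an unadjusted p under 0.05 there were 0 members and 397 of 14419 genes. Leaving out its 1:30 library gave 0 members and 0% again (1 member and 930 genes unadjusted), with log2 changes of 0.14 for Grik5, -0.17 for Grin2c and -0.20 for Grin1. In the pooled fit Grik5 kept its direction without any 1 replicate, but not always its call. Without replicate 1 it gave 0.51 (adjusted p = 0.0748) and without replicate 2 0.48 (adjusted p = 0.165), where 175 and 48 of all genes were called. Without replicate 3 it gave 0.98 (adjusted p = 1.04e-07), with 5289 genes called. The labels do not say what a replicate number stands for, and its part in the result was not tested.

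**Figure D3:**
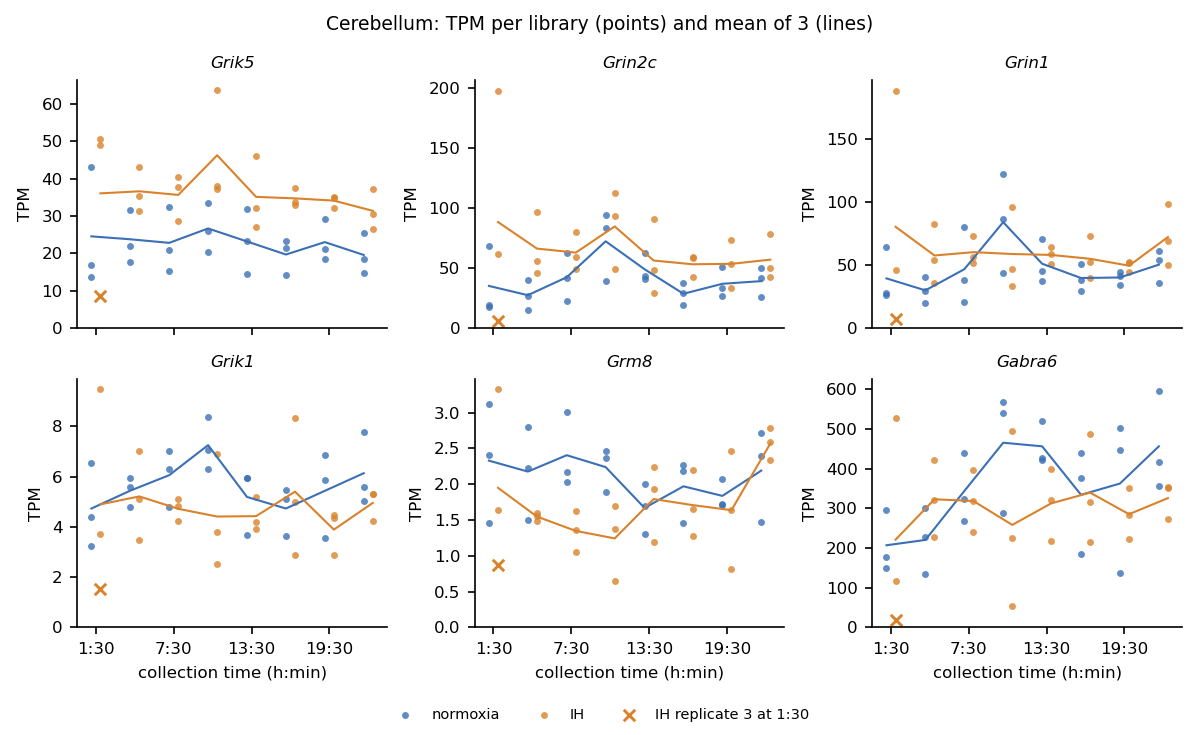
TPM of 6 subunit genes in each cerebellar library (points) by collection time in hours and minutes, with the mean of 3 libraries as lines, for normoxia and IH. The cross marks the IH library of replicate 3 at 1:30, the lowest point for Grik5 (8.50 TPM), Grin2c, Grin1, Grik1 and Gabra6, and the IH means of Grik5 and Grin2c lie above those of normoxia at 8 of 8 time points.

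Base composition moved with the cerebellar changes. Over all genes the change correlated with the GC content of the transcript (Pearson r = 0.421 across genes, which are not independent), with a median log2 change of -0.12 for genes under 45% GC and 0.17 for those over 55%. Grin2c (62.1% GC) and Grik5 (61.7%) are among the 6 tested members over 55%, whose median change was 0.28, while the median of the 17 members under 45% was -0.12. After a GC and length correction, chosen after seeing the data, 2 members were called, against 12.2% of genes. They were Grik5, at a log2 change of 0.36 (adjusted p = 0.0182), and Grm2, at -0.44 (0.01), which had missed the threshold before and is named after its values were seen. Grin2c then gave 0.29 (adjusted p = 0.195), Grik1 -0.20 (0.0558) and Grm8 -0.15 (0.281). With that correction and without the IH library of replicate 3 at 1:30, 5 members were called, against 21.8% of genes, with Grik5 at 0.38 (adjusted p = 0.00647), Grin2c at 0.36 (0.0309) and Grm2 at -0.43 (0.00873). The other 2, Gabrg1 (0.42, adjusted p = 0.0179) and Gria2 (0.41, 0.0199), were not called before and are named after their values were seen, while Grik1 (0.0532), Grm8 (0.22) and Grin1 (0.144) were no longer called. The part of base composition in the changes was not tested further.

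The stretches just upstream of 5 members are shown because their levels moved after IH or mark the tissue, Grik5 and Grin2c rising in the cerebellum, Gabre rising and Gabrp falling in the lung, and Gabra6 as the cerebellar gene. RefSeq promoters (GRCm38.p6) were matched by symbol for 30 of the 45 members, giving 37 starts. Capitals mark the letters GGGCGG (a GC box), ACGTG and GCGTG (core letters of the hypoxia response element) and TATAAA, searched on both strands. The 250 bases before the start are given for Grik5 (chr7:25072370-25072619, minus strand), Grin2c (chr11:115267244-115267493, minus strand), Gabre (chrX:72274722-72274971, minus strand), Gabrp (chr11:33578958-33579207, minus strand) and Gabra6 (chr11:42321073-42321322, minus strand).
Grik5: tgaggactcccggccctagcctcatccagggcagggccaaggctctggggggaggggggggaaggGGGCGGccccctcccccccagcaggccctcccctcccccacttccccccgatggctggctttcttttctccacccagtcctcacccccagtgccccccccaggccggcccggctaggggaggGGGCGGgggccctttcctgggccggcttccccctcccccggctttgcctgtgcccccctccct
Grin2c: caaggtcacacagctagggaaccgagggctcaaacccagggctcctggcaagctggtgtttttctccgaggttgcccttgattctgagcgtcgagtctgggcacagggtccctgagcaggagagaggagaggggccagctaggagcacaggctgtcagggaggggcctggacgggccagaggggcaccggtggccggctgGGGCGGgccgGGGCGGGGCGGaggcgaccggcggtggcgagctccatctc
Gabre: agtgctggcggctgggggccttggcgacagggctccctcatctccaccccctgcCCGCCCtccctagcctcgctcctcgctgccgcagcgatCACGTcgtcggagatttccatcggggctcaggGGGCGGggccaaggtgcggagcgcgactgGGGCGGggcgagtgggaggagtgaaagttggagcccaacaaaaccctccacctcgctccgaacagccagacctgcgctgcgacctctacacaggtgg
Gabrp: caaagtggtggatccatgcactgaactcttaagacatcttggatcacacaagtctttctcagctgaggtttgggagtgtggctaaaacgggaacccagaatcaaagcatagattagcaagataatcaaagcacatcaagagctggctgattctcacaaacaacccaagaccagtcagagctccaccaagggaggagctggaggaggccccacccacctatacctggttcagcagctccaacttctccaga
Gabra6: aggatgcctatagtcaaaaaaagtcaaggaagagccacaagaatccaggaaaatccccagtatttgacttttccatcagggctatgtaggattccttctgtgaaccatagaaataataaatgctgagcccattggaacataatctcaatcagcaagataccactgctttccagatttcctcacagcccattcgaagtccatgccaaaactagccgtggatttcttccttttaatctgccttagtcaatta
GGGCGG was found in 16 of the 37 member stretches and in 32.7% of all 32851 stretches of that length, ACGTG in 6 and in 16.6%, GCGTG in 11 and in 28.2%, and TATAAA in 4 and in 12.4%. Grik5 held 2 GC boxes, and Grin2c and Gabre 3 each. Gabre alone of the 5 held ACGTG, and Gabra6 and Gabrp held none of the motifs. The stretches of Grik5 (75.2% GC), Grin2c and Gabre (68.8% each) were richer in GC than the median of all (52.4%), and that of Gabra6 (40.8%) was poorer. These matches describe letters in a window only.

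The test for a 24-hour rhythm called almost no gene, so its counts say little about the subunits. In a 24-hour cosine fit with limma, 0 of 36 members were rhythmic in normoxia, against 0.00658% of genes (1 of 15201), and 0 of 36 after IH, against 0.0207% (3 of 14490). At an unadjusted p under 0.05 there were 3 members in normoxia, where 20.8% of all genes passed, and 1 after IH, where 3.53% did. The 3 were Gabra6 (amplitude 0.39 on the log2 scale, peak at 15.4 h, adjusted p = 0.217), Gabrb2 (amplitude 0.78, adjusted p = 0.168) and Gria1, and the 1 was Gabra5 (amplitude 0.81, adjusted p = 0.987). The clock gene Dbp was rhythmic after IH (amplitude 0.96, peak at 10.3 h, adjusted p = 7.62e-05) and gave 0.42, a peak at 9.88 h and an adjusted p of 0.103 in normoxia. The mean of Grik5 in IH ranged from 31.4 TPM at 22:30 to 46.3 TPM at 10:30, with SDs of 5.46 and 15.1 TPM (n = 3).

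The levels of some subunits followed the marker sums of the cerebellar libraries, and others did not. These relations use TPM as deposited, which share a common total, and its part in them was not tested. Of 24 relations of 6 members with 4 marker sums, 12 passed an adjusted p of 0.05 by Pearson in normoxia and 13 after IH. In bulk tissue, fewer cells of a type and less RNA per cell cannot be told apart. Across the 24 normoxia libraries, Gabra6 rose and fell with the summed granule cell markers (Neurod1, Fat2, Zic1, Zic2, Etv1, Rbfox3), with Pearson r = 0.82 and Spearman rho = 0.80 (permutation p = 1e-05 for both, the smallest that 100000 permutations can give). The adjusted p values over 48 relations were 5.3e-05 and 8e-05, and r was 0.77 without the 2 libraries farthest out. Grin2c gave r = 0.86 and rho = 0.85 with the same sum (permutation p = 1e-05 for both, adjusted p = 5.3e-05 and 8e-05, r = 0.82 without 2 libraries), while Grm8 gave r = -0.21 and rho = -0.23 (permutation p = 0.32 and 0.29, adjusted p = 0.38 and 0.35, r = -0.06 without 2 libraries). Grik1 was tied to it, at r = 0.70 and rho = 0.64 (permutation p = 1.6e-04 and 0.0011, adjusted p = 4.8e-04 and 0.003, r = 0.71 without 2 libraries). Grik5 was less tied to it, at r = 0.51 and rho = 0.55 (permutation p = 0.01 and 0.0061, adjusted p = 0.021 and 0.013, r = 0.48 without 2 libraries), and with the Purkinje cell markers it gave r = 0.36 and rho = 0.34 (permutation p = 0.082 and 0.1, adjusted p = 0.12 and 0.15, r = 0.28 without 2 libraries). After IH, with the library of replicate 3 at 1:30 left out (23 libraries), Grik5 gave r = -0.03 and rho = 0.20 (permutation p = 0.88 and 0.35, adjusted p = 0.9 and 0.41, r = 0.19 without 2 libraries). Grin2c gave r = 0.44 and rho = 0.41 (permutation p = 0.04 and 0.056, adjusted p = 0.068 and 0.1, r = 0.57 without 2 libraries), so its relation in normoxia did not pass after IH. Grin1 gave r = 0.88 and rho = 0.85 there (permutation p = 1e-05 for both, adjusted p = 5.3e-05 and 8e-05, r = 0.79 without 2 libraries). Grik1 gave r = 0.91 and rho = 0.88 (permutation p = 1e-05 for both, adjusted p = 5.3e-05 and 8e-05, r = 0.86 without 2 libraries). Grm8, unlike in normoxia, passed by Pearson at r = 0.55, with rho = 0.36 (permutation p = 0.0073 and 0.096, adjusted p = 0.015 and 0.14), and r was 0.14 without 2 libraries. Summed oligodendrocyte markers, Mbp among them, ran against Grik5 after IH, at r = -0.63 and rho = -0.55 (permutation p = 0.0016 and 0.0069, adjusted p = 0.004 and 0.015, r = -0.48 without 2 libraries), and with Grm8, at r = 0.74 and rho = 0.77 (permutation p = 4e-05 and 2e-05, adjusted p = 1.5e-04 and 1.2e-04, r = 0.78 without 2 libraries). Neither relation passed in normoxia, where Grik5 gave r = 0.11 and rho = 0.205 (permutation p = 0.61 and 0.33, adjusted p = 0.68 and 0.4, r = 0.135 without 2 libraries) and Grm8 r = 0.18 and rho = 0.18 (permutation p = 0.4 and 0.41, adjusted p = 0.46 for both, r = 0.08 without 2 libraries). Heart markers ran the other way from granule cell markers, with r = -0.80 and rho = -0.66 for Gabra6 after IH (permutation p = 1e-05 and 8.7e-04, adjusted p = 5.3e-05 and 0.0026, r = -0.69 without 2 libraries).

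The marker sums themselves overlapped widely between treatments. Granule cell markers ran from 348.6 through 713 to 1253 TPM in normoxia and from 177 through 777 to 1943 TPM after IH. Over the libraries other than the IH library of replicate 3 at 1:30, Rbfox3 (205 TPM), Neurod1 (185) and Zic1 (174) had the highest medians. Of the granule cell markers 1 of 6 rose (Rbfox3, log2 change 0.51, adjusted p = 0.00483). Purkinje cell markers ran from 1933 through 4662 to 6695 TPM and from 458 through 4459 to 6674 TPM, and 0 of 6 passed by limma (0 unadjusted). Over the same libraries as above, the median of Pcp2 was 1735 TPM and that of Pcp4 1648 TPM. Of the 6 oligodendrocyte and the 6 astrocyte markers 0 passed, with 0 and 1 at an unadjusted p under 0.05. Of the microglia and endothelial markers 1 of 5 each rose, Tmem119 (0.42) and Cldn5 (0.54). Of the heart markers 0 of 5 passed, and their median log2 change was -0.68. Red blood cell, choroid plexus, brainstem, skeletal muscle, lung, liver and kidney markers gave 0 calls, adjusted or not, and 1 of 2 forebrain markers tested fell (Neurod6, -0.27). Without the IH library of replicate 3 at 1:30 the counts called were the same for each of these marker lists. After GC and length correction they were not. Rbfox3 (limma adjusted p = 0.0569), Tmem119 (0.0614) and Neurod6 (0.412) were then no longer called, while Cldn5 still was (0.0436). The red blood cell marker Hbb-bt was then called higher (0.46, 0.0457), and is named after its values were seen. With the heart marker sum as a further term, chosen after seeing the data, 14 of 36 members were called, against 22.2% of genes, and Grik5 gave 0.67 (adjusted p = 1.13e-04) and Grin2c 0.50 (0.0236). What the heart transcripts contribute was not tested beyond these fits.

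**Figure D4:**
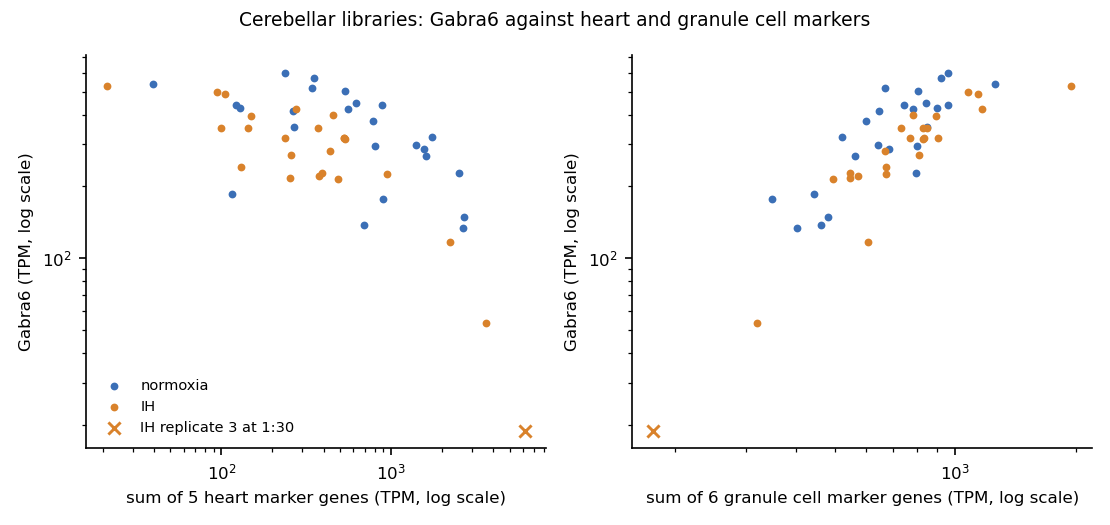
Gabra6 (y axis, TPM) against the sum of 5 heart markers (left) and of 6 granule cell markers (right, TPM) in the 48 cerebellar libraries, all axes on a log scale. Gabra6 is lower where heart markers are high and higher where granule cell markers are high, and the IH library of replicate 3 at 1:30 (cross) lies at 19.0 TPM.

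Most partners of the receptors were not called in the cerebellum. Of 74 partner genes tested in 8 lists, 11 rose and 3 fell, where all genes gave 9.76 and 5.24%, after GC and length correction 7 rose and 3 fell, and without the IH library of replicate 3 at 1:30 13 rose and 3 fell. Of 8 genes of GABA synthesis, release and uptake, 1 fell, Gad1, which makes GABA, from 204 ± 70.1 to 158 ± 68.0 TPM (log2 change -0.50, adjusted p = 0.0374, and 0.08 after GC and length correction), and 0 rose. Of 4 GABA-B receptor and chloride transporter genes, Gabbr1 rose (0.38, adjusted p = 0.0275, and 0.0642 after the correction) and Slc12a5, which carries chloride out of neurons, fell (-0.51, adjusted p = 0.0141). Of 11 GABA-A scaffolds and partners 3 rose and 0 fell, among them the adhesion protein gene Nlgn2 (0.65, adjusted p = 0.00823) and Lhfpl4 (0.41, adjusted p = 5.44e-05), while the most abundant, Gabarap, gave 0.04. The 3 glycine receptor genes tested of 5, with Glrb the most abundant, gave 0 calls by limma and 1 at an unadjusted p under 0.05.

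On the glutamate side, 1 of 8 genes of release, uptake and metabolism rose, the vesicular transporter Slc17a7 (0.57, adjusted p = 0.041, and 0.0892 after GC and length correction), and the most abundant, Glul, gave -0.14. Among 16 AMPA receptor partners tested of 17, 3 rose, led by Cacng8 (0.54, adjusted p = 3.55e-04, and 0.185 after the correction), and Grip1 fell (-0.49, adjusted p = 0.0223), while Cacng7 was the most abundant. The 8 kainate and delta receptor partners tested of 9 gave 0 calls by limma, also unadjusted, and the most abundant, Cbln1, stood at 547 ± 180 and 589 ± 216 TPM. Among 16 postsynaptic density genes tested of 17, 3 rose and 0 fell: Dlgap3 (0.75, adjusted p = 0.00235), Shank3 (0.68, adjusted p = 0.0129) and Shank1 (0.54, adjusted p = 0.00446). After the correction Dlgap3 was still called (adjusted p = 0.0469), Shank3 (0.112) and Shank1 (0.0894) were not, and Homer1 (0.31, adjusted p = 0.0126) and Dlg1 (0.21, 0.0259) were called higher and Dlgap4 lower (-0.38, 0.00265), all 3 named after their values were seen. The median changes of these 8 lists lay between -0.08 and 0.10.

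In the lung all 7 members that averaged 1 TPM or more over both groups changed, but so did 70.4% of the 15426 genes tested. There were 5 members higher, against 28.9% of genes, and 2 lower, against 41.5%, and 4 passed with 1.5-fold as well. Of these Gabre, Grin2d and Grik5 were higher, against 9.12% of genes, and Gabrp was lower, against 4.39%. The other 38 members fell under the filter on low values and were not tested. Counted by group means of 1 TPM, kainate and NMDA members went from 1 each in normoxia to 2 each after IH. Members that reached 1 TPM after IH alone were thus left untested. Scaling matters here, since the median log2 change of all genes was -0.08 after scaling and 0.21 for TPM as deposited, with 4464 genes higher and 6400 lower against 8478 and 1655.

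Gabre, the epsilon subunit, ran from 0.878 through 1.34 to 2.10 TPM in normoxia and from 2.51 through 4.32 to 12.2 TPM after IH. All 24 IH libraries lay above the highest normoxia library. The log2 change was 1.22 (SE 0.10, adjusted p = 2.53e-14). Grik5 separated as fully, from 5.22 through 6.35 to 7.80 TPM in normoxia and from 7.84 through 11.4 to 25.9 TPM after IH, with 24 of 24 IH libraries above. Its log2 change was 0.62 (SE 0.06, adjusted p = 7.56e-13). Grin2d ran from 1.17 through 2.17 to 3.87 TPM and from 3.37 through 4.56 to 6.91 TPM, with 18 of 24 IH libraries above all of normoxia (log2 change 0.66, adjusted p = 3.12e-09). Gria3 rose by 0.53 (adjusted p = 6.54e-07) and Gria1 by 0.27 (adjusted p = 0.0131), which was 0.05 (adjusted p = 0.683) without replicate 3. Without the IH library of replicate 2 at 1:30, left out after seeing the data, 7 of 7 members were called, against 69.2% of genes, with log2 changes of 1.17 for Gabre, 0.58 for Grik5, 0.67 for Grin2d and -0.73 for Gabrp.

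Gabrp ran from 35.8 through 42.1 to 79.0 TPM in normoxia and from 12.6 through 37.9 to 52.7 TPM after IH. The IH libraries were spread out, with 11 below the lowest normoxia library and 7 above the normoxia median. All 11 belonged to replicates 1 and 2. In these the means fell from 41.6 ± 3.21 to 26.25 ± 12.44 TPM and from 45.91 ± 14.02 to 29.8 ± 11.23 TPM, while in replicate 3 they were 44.7 ± 4.93 and 45.3 ± 5.32 TPM (n = 8 each). Over all replicates the log2 change was -0.78 (SE 0.14, adjusted p = 5.17e-06), and the IH mean was lower at all 8 time points. Gabra3 fell by 0.22 on the log2 scale (adjusted p = 2.89e-04), although its TPM as deposited gave 0.05 (adjusted p = 0.48), so its direction turns with the scaling.

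Marker genes of several cell types changed in the lung too, where fewer cells and less RNA per cell again cannot be told apart. Of the endothelial and red blood cell markers 5 of 5 each fell, and 4 of 5 microglia markers, while 2 of 5 heart markers rose. These calls follow scaling. In summed TPM the microglia median was 86.9 in normoxia and 94.6 after IH, while the endothelial and red blood cell medians were lower after IH. Of the lung markers (Sftpc, Sftpb, Sftpa1, Scgb1a1 and Ager) 5 of 5 fell, while 5 of the 7 members rose. Their sum, led by the airway gene Scgb1a1, ran from 136000 through 170600 to 264200 TPM in normoxia and from 34580 through 147300 to 205100 TPM after IH. What cell makeup contributes to the member changes was not tested beyond the fits given here. The relations below use TPM as deposited, and what the common total contributes to them was not tested. Gabrp followed the sum in normoxia (r = 0.86, rho = 0.69, permutation p = 3e-05 and 2e-04, adjusted p = 7.5e-05 and 0.001 over 10 relations, r = 0.62 without 2 libraries). It did so after IH as well (r = 0.95, rho = 0.84, permutation p = 1e-05 for both, adjusted p = 3.3e-05 and 1e-04, r = 0.95 without 2 libraries). Grik5 ran against the sum after IH (r = -0.77, rho = -0.58, permutation p = 1e-05 and 0.0032, adjusted p = 3.3e-05 and 0.011, r = -0.65 without 2 libraries), as did Gabre (r = -0.76, rho = -0.56, permutation p = 1e-05 and 0.0055, adjusted p = 3.3e-05 and 0.014, r = -0.73 without 2 libraries). In normoxia neither passed, with r = -0.135 and rho = -0.07 for Grik5 (permutation p = 0.54 and 0.74, adjusted p = 0.6 and 0.76, r = -0.13 without 2 libraries) and r = 0.20 and rho = 0.06 for Gabre (permutation p = 0.35 and 0.76, adjusted p = 0.44 and 0.76, r = -0.065 without 2 libraries). Grin2d ran against the sum in normoxia (r = -0.48, rho = -0.46, permutation p = 0.017 and 0.023, adjusted p = 0.024 and 0.042, r = -0.545 without 2 libraries) and not after IH (r = 0.105, rho = 0.26, permutation p = 0.62 and 0.22, adjusted p = 0.62 and 0.28, r = 0.17 without 2 libraries). With the lung marker sum as a further term, chosen after seeing the data, the log2 changes were 0.99 for Gabre, 0.47 for Grik5 and 0.69 for Grin2d, and that of Gabrp was -0.27 (adjusted p = 1.58e-04). Gabra3 then gave -0.11 (adjusted p = 0.058). Adding instead how many genes a library detects, Gabrp gave -0.04 (adjusted p = 0.882), Gabra3 -0.01 (0.934), Gabre 0.66 (9.46e-06) and Grik5 0.33 (1.75e-04). After GC and length correction 7 of 7 were called, against 71.1% of genes.

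**Figure D5:**
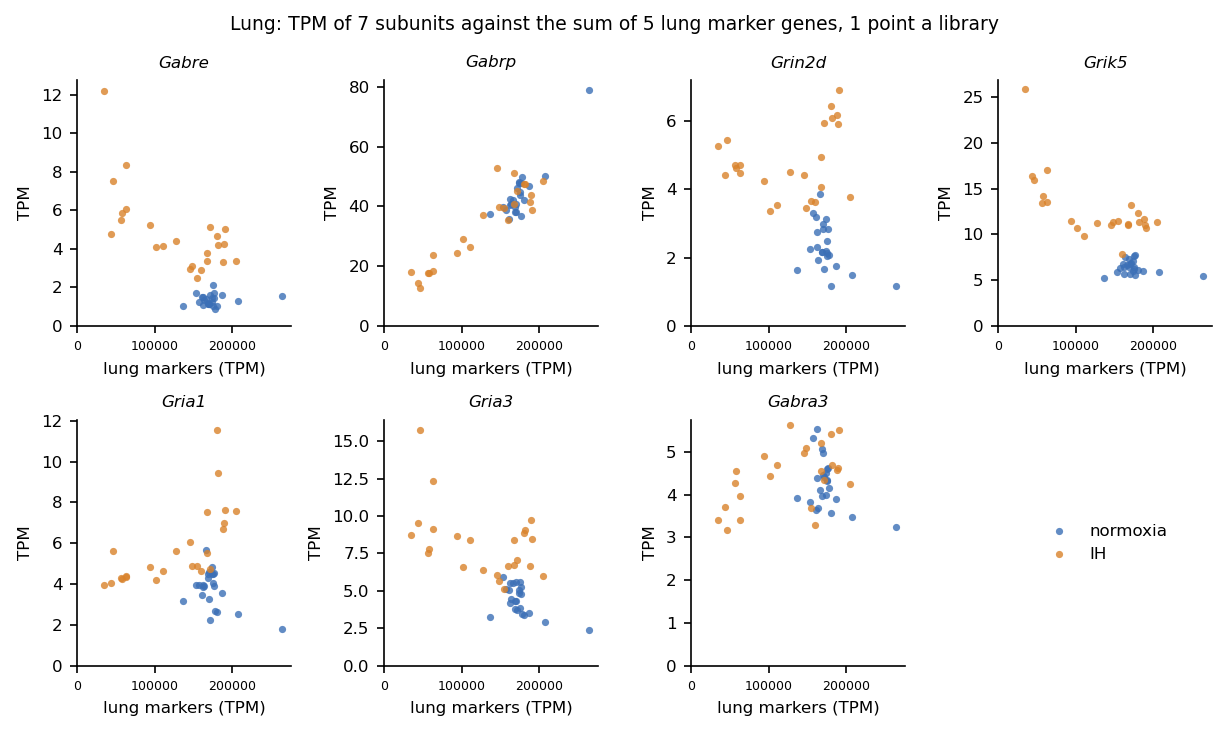
TPM of 7 subunit genes (y axes) in the 48 lung libraries against the sum of 5 lung marker genes (x axes, TPM), for normoxia and IH, 1 point a library. Gabre and Grik5 lie higher in all 24 IH libraries than in any normoxia library, and Gabrp falls with the marker sum.

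Lung genes around the receptors changed in larger numbers than in the cerebellum, as did all lung genes. Of all lung genes tested 28.9% were called higher and 41.5% lower. Of 13 postsynaptic density genes tested, 7 rose and 1 fell, among them Dlg4 (log2 change 1.16, adjusted p = 1.35e-15), while Shank3 was the most abundant at 45.8 ± 6.13 and 80.9 ± 20.4 TPM. The GABA-B receptor gene Gabbr1 rose from 22.0 ± 4.47 to 74.0 ± 29.1 TPM (1.36, adjusted p = 1.74e-14), and 2 of 3 genes of its list rose and 1 fell. Of 11 GABA-A scaffolds, 4 rose and 6 fell, with Lhfpl4 (0.68) and Nlgn2 (0.66) highest. Of 8 AMPA partners tested 4 rose and 2 fell, and of 5 glutamate genes 3 rose and 2 fell. The 2 GABA synthesis genes tested gave 0 calls by limma, also unadjusted, the 1 glycine receptor gene (Glrb) rose, and 1 of 2 kainate and delta partners rose. After GC and length correction the kainate and delta list gave 0 higher and 1 lower, and the GABA-B list 1 and 1. The GABA-A scaffolds then gave 3 and 7, the glutamate genes 2 and 2 and the postsynaptic density genes 6 and 2.

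The other tissues gave small changes. In heart 2 of 3 members tested changed, against 45.2% of genes, with 1 higher (28.0%) and 1 lower (17.3%), and 0 with 1.5-fold (2.95%). Gabra3 rose from 1.30 ± 0.413 to 2.09 ± 0.554 TPM (log2 change 0.43, adjusted p = 2.55e-05), and Grik5 fell from 2.50 ± 0.785 to 2.21 ± 0.364 TPM (-0.21, adjusted p = 0.00376). Without the normoxia libraries of replicate 3 at 7:30 and 19:30, which correlated least with the others, and the IH library with cerebellar transcripts, the values were 0.38 (adjusted p = 6.58e-05) and -0.26 (1.69e-04). For TPM as deposited Grik5 was no longer called (-0.11, adjusted p = 0.263). Adding how many genes a library detects ended both calls (Gabra3 0.15, adjusted p = 0.558, and Grik5 -0.28, 0.156), with 257 genes called in all. In heart, the medians of all genes were 0.04 after scaling and 0.15 as deposited, and the calls 3575 higher and 2207 lower against 4788 and 816.

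In kidney 3 of 4 members changed, against 19.8% of genes, with 1 higher (8.25%) and 2 lower (11.5%), and 0 with 1.5-fold (0.783%). Grik5 rose from 3.65 ± 0.917 to 4.44 ± 0.793 TPM (0.30, adjusted p = 9.76e-05), and Gria3 fell from 2.32 ± 0.814 to 1.76 ± 0.405 TPM (-0.26, adjusted p = 0.00583). Without the normoxia library of replicate 1 at 4:30, 1 of the near-identical kidney libraries, they gave 0.32 and -0.24, both still called. Of 13 alternatives run for each, Grik5 kept its call in all 13, and Gria3 lost it in 2 (adjusted p up to 0.0752). Kidney calls were 1064 higher and 1488 lower after scaling and 262 and 747 as deposited.

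In liver 0 of 1 members changed (limma, 24.2% of genes, 10.9% higher, 13.3% lower, 3.66% with 1.5-fold, 0 at an unadjusted p under 0.05). Grik5 there was 2.01 ± 0.673 TPM in normoxia and 1.79 ± 1.46 TPM after IH (-0.19, adjusted p = 0.36), and the count was again 0 without the IH library of replicate 2 at 13:30. In muscle 0 of 3 changed (limma, 10.4% of genes, 5.48% higher, 4.89% lower, 0.374% with 1.5-fold, 1 at an unadjusted p under 0.05). Liver calls were 1240 higher and 1508 lower after scaling and 408 and 2059 as deposited, and muscle calls 703 and 627 against 1865 and 81. Muscle Grik5 was 2.31 ± 0.432 and 2.25 ± 0.416 TPM, Gabrr2 1.10 ± 0.278 and 1.32 ± 0.720 TPM, and Gabra3 0.953 ± 0.238 and 1.09 ± 0.519 TPM.

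Whether the cerebellum answered IH differently was asked with limma as the difference between its IH change and that of another tissue. Against the lung, 3 of 5 members tested differed, while 49.8% of 13178 genes did. For Gria3 the change in the cerebellum minus that in the lung was -0.66 (SE 0.13, adjusted p = 2.88e-05), with log2 changes of -0.14 and 0.53. For Grin2d it was -0.43 (SE 0.15, adjusted p = 0.0111), with 0.23 and 0.66, and for Gabra3 0.48 (SE 0.18, adjusted p = 0.0225), with 0.25 and -0.22. Grik5 gave a difference of 0.04 (SE 0.13, adjusted p = 0.821), and its log2 changes were 0.66 and 0.62 in these tissues. Against the heart, 1 of 3 members differed, against 27.9% of genes: Grik5, by 0.87 (SE 0.14, adjusted p = 9.25e-07). Leaving out the cerebellar IH library of replicate 3 at 1:30 gave 3 and 1 members again. Over 9 alternatives, Gabra3 lost its call against the lung in 3 (adjusted p up to 0.365) and Grin2d in 1 (0.609). Gria3 against the lung and Grik5 against the heart kept theirs in all 9.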

How the data were processed

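Per the methods of the study, the authors quantified poly(A) RNA reads with Kallisto on the Ensembl mouse reference and deposited TPM values per gene symbol, after bcl2fastq and FastQC 0.11.3, with genome build mm10. The deposited TPM are not counts and keep no record of the read depth of a library. Here, IH was compared with normoxia within each tissue by limma 3.58.1 in R 4.3.3 on log2(TPM + 0.5) after median-of-ratios scaling, keeping genes that averaged 1 TPM or more. P-values were two-sided and adjusted over all genes tested (Benjamini-Hochberg), with calls at 0.05. The contrast of cerebellum with the other tissues used TPM as deposited. Correlations used log2 values of TPM as deposited, without that scaling, and 100000 permutations. Python packages were numpy 2.4.6, pandas 2.3.3, scipy 1.17.1 and matplotlib 3.10.9. Gene positions and the GC content and length of the longest transcript of a gene came from GENCODE on GRCm38. Promoters came from RefSeq GRCm38.p6, and the fitting code was tested on simulated data.

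The members and gene lists were chosen with earlier results of these data known. Named genes were, in the cerebellum, the 10 called members with the largest absolute log2 change and the most abundant member of each family. In each other tissue they were the 3 highest members in normoxia and any called with 1.5-fold, and in each list the most abundant gene and the 2 called genes with the largest change. Some genes these rules name are not reported here. Alternatives were other pseudocounts, filters and scalings, further terms for time, replicate number and genes detected, a block per time and replicate number, and leaving out each replicate. Alternatives chosen after seeing the data were GC and length correction, marker sums as terms, and leaving out libraries that stand apart, except for the cerebellar IH library of replicate 3 at 1:30, whose removal from the cerebellar comparison was planned.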

Additional observations from a re-analysis of the deposited data

Results flagged for a closer look

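In 4 cases the IH change of a subunit gene differed between tissues by a test of the difference itself in limma. The log2 change in the cerebellum minus that in the lung was 0.4766 for Gabra3, -0.6617 for Gria3 and -0.4309 for Grin2d. The change of Grik5 in the cerebellum minus that in the heart was 0.8691. Over 9 alternatives, the adjusted p ran from 0.0153 to 0.365 for Gabra3, from 4.58e-06 to 0.00651 for Gria3, from 4.56e-07 to 0.609 for Grin2d and from 4.8e-11 to 0.0109 for Grik5. The causes of these differences were not tested.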

How the results depend on the processing

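Counts over all genes moved too, and those not given here follow below. The number of cerebellar members called was 4 of 36, beside 15.0% of genes. It moved to 1 on TPM as deposited and 2 with GC and length correction (12.2% of genes). With the heart marker sum as a term it was 14 (22.2% of genes), and with 5 brain marker sums 13. It ran from 0 to 9 when a replicate was left out, where 48 to 5289 genes were called. It stayed within 1.5 times under 13 of 20 alternatives. In lung, 7 became 3 at a mean of 5 TPM, where fewer members were tested. Without a filter 35 members were called, among 18747 genes called in all. In heart, 2 became 0 at 5 TPM, where no member was tested, and ran from 1 to 2 without a replicate. The heart count was 14 without a filter, among 13028 genes called, and 0 with genes detected as a term, where 257 genes were called. In kidney, 3 became 0 at 5 TPM, where no member was tested, and ran from 1 to 3 without a replicate. In liver, 0 became 1 without a filter. The count by replicate number, 3, was 1 on TPM as deposited, and that against the lung, 3, ran from 1 to 3 without a replicate. Other than where fewer members were tested, the cause was not tested.

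Directions turned in 3 results, and the cause was not tested. Cerebellar Gria1 (0.03) was -0.0557 with genes detected, -0.115 with the heart marker sum and -0.089 with 5 brain marker sums as terms, and ran from -0.0641 to 0.1904 without a replicate. Cerebellar Grm4 (0.02) was -0.0668, -0.0785 and -0.0475 with those terms, -0.2878 with GC and length correction, with or without the replicate block, and -0.2303 with that correction and without the IH library of replicate 3 at 1:30, and ran from -0.21 to 0.2525 without a replicate. Lung Gabra3 was 0.0485 on TPM as deposited.

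In no tissue did all 24 pairs of the same time and replicate number have a correlation above 0.1. In the cerebellum 13 did (median 0.132), and 7 matched best within their own number, while in liver 22 did (median 0.322), and 15 matched best. With the replicate block, 3 of 36 cerebellar members were called, with adjusted p of 0.00193 for Grik5, 0.0461 for Grin2c, 0.0431 for Grik1 and 0.0547 for Grm8.

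Counts over all genes moved as well. The cerebellar 2234 ran from 48 to 5289, with 936 on TPM as deposited and 3847 with 5 brain marker sums. Lung 10864 became 18747 without a filter, and heart 5782 became 13028 without a filter and 257 with genes detected. Kidney 2552 became 1009 on TPM as deposited, liver 2748 ran from 110 to 4637, and muscle 1330 fell to 338 without replicate 2. The 547 by replicate number became 106 on TPM as deposited and 860 with time as a term. Rhythmic genes ran from 0 to 264 in normoxia and 0 to 4 after IH. The 6566 against the lung became 3513 without replicate 2, and the 3322 against the heart 654 and 1146 without replicates 1 and 2. TPM keep no depth, so these values do not give the number of reads behind a low member.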
